A study of Mus musculus with 2 samples.

Results

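The mir-29 family of the mouse consists of 4 microRNA genes, Mir29a, Mir29b-1, Mir29b-2 and Mir29c, and its levels were read here in hippocampal tissue of aged mice. The members were found by their symbols in GENCODE M21, and all 4 were present among the 2202 miRNA genes of the count tables. They form 2 clusters, Mir29a with Mir29b-1 on chromosome 6 and Mir29b-2 with Mir29c on chromosome 1. The libraries came from male mice of strain B6CASTF1/J, a hybrid of C57BL/6 and CAST mice, at 18 to 20 months of age, and the labels name no treatment. Since there was a single group of 2 samples, called replicate 1 and replicate 2 here, no comparison of age, sex, strain or treatment was possible. Each replicate has its own biosample entry while the donor entry is common to both, and separate animals are not stated, so the spread between them may be technical.

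MicroRNAs are cut from a hairpin, which yields a mature strand from its 5′ arm (5p) and another from its 3′ arm (3p), and they lower the stability or translation of messenger RNAs that pair with the seed, bases 2 to 8 of the mature strand. For mir-29 the 3p strand is the one known to be active. Its described targets include the DNA methyltransferases Dnmt3a and Dnmt3b, collagens and other matrix genes, and, in mouse neurons, pro-apoptotic genes of the BH3-only group. In mouse brain the family is known to be low before birth and to rise as neurons mature, and it has been described in astrocytes as well as in neurons. In bulk tissue, fewer cells of a type and less RNA per cell cannot be told apart.

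The mature 3p strands are shown first because all 4 genes meet in the seed and differ only behind it. The sequences are from RefSeq on GRCm38.p6, where all 4 members had an entry. Capitals mark the seed.
miR-29a-3p: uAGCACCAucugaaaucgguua
miR-29b-3p: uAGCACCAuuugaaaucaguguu
miR-29c-3p: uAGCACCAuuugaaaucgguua

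Both Mir29b genes carry the same 3p strand. Counted from 1 at the 5′ end, miR-29a-3p and miR-29c-3p differ at a single place, C10U. Between miR-29a-3p and miR-29b-3p there are 4 differences over the first 22 bases, C10U, G18A, U21G and A22U, and miR-29b-3p is longer, with 23 bases. Between miR-29b-3p and miR-29c-3p there are 3, A18G, G21U and U22A. The seed AGCACCA occurred at bases 2 to 8 of 3 of the 1679 mature mouse microRNAs in the RefSeq table (0.179%), which are these 3 strands and no other.

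Within the family only miR-29b-3p ends in AGUGUU, a tail described in human cells as directing miR-29b to the nucleus. Read on the RNA strand, those 6 letters ended 2 of the 1679 mature sequences (0.119%), miR-29b-3p and miR-92b-5p. Bases 9 to 11 read UUU in miR-29b-3p and miR-29c-3p and UCU in miR-29a-3p. Uracils at these bases were described in human cells as needed for the fast turnover of mir-29, and UUU stood there in 24 of the 1679 mature sequences (1.43%). A match of letters is a description and shows neither localization nor turnover in this tissue.

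The 5p strands are shown because they are where the Mir29b copies differ. Capitals again mark bases 2 to 8.
miR-29a-5p: aCUGAUUUcuuuugguguucag
miR-29b-1-5p: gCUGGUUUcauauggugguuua
miR-29b-2-5p: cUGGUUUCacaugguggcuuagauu
miR-29c-5p: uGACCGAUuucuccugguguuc

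No seed is shared among these 4 strands. The only other mature sequence with a matching seed was miR-6338, which shares bases 2 to 8 with miR-29b-2-5p.

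For the counts it matters which stretch of a hairpin is also present elsewhere, since a read that mapped to several places entered no gene. The next lines give 30 bases around each 3p strand, from 5 bases before it to the 2 or 3 bases after it, on the strand of the gene. Capitals mark bases covered by 20-base windows that also lie in another annotated miRNA hairpin.
Mir29a, chr6:31062670-31062699, minus strand: uuuucuagcaccaucugaaaucgguuauaa
Mir29b-1, chr6:31063023-31063052, minus strand: UUGUCUAGCACCAUUUGAAAUCAGUGUUcu
Mir29b-2, chr1:195037086-195037115, plus strand: guaUCUAGCACCAUUUGAAAUCAGUGUUuu
Mir29c, chr1:195037595-195037624, plus strand: UUGUCUAGCACCAUUUGAAAUCgguuauga

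The whole of miR-29b-3p lies inside a run of 25 bases that is identical at both Mir29b loci. A read of that strand therefore matches both genes and could be assigned to a locus only if it reached beyond the run. Mir29b-1 also shares a run of 22 bases with Mir29c, which covers the first 17 bases of miR-29c-3p and stops before its end. In the hairpin of Mir29a no window of 20 bases occurred in another hairpin. The counts are per gene, so reads of 5p and 3p strands cannot be separated.

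**Figure D1:**
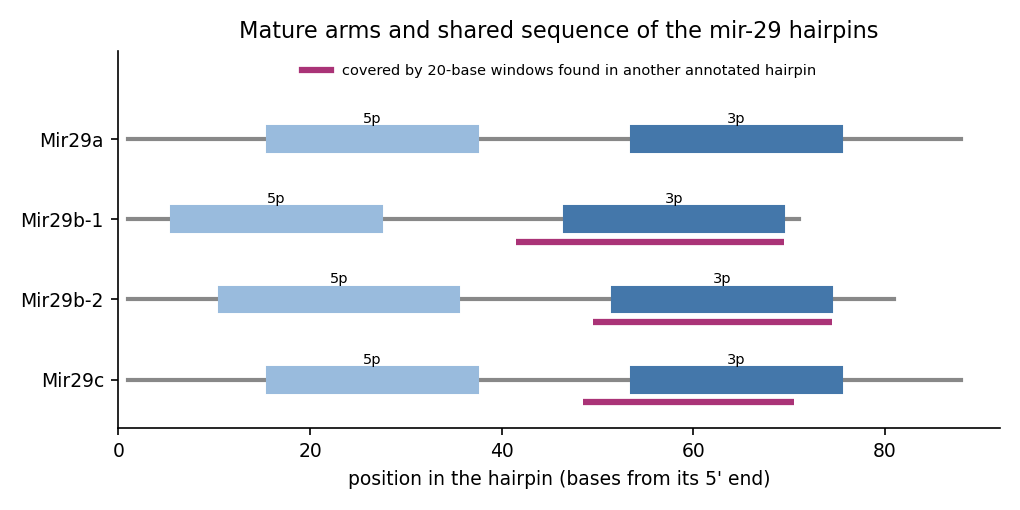
Layout of the 4 mir-29 hairpins, with position in bases from the 5′ end on the horizontal axis; boxes are the mature 5p and 3p strands and the purple line marks bases covered by 20-base windows that occur in another annotated hairpin. The line spans the whole 3p box of both Mir29b genes, part of that of Mir29c, and none of Mir29a.

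In mm10 coordinates, Mir29a (ENSMUSG00000065610.1) lies on chromosome 6 from 31062660 to 31062747 on the minus strand, outside any other annotated gene. Mir29b-1 (ENSMUSG00000065604.2) lies 275 bases from it, from 31063023 to 31063093, on the minus strand, and overlaps an exon of the long non-coding RNA gene Gm27019 on that strand by 2 bases. Mir29b-2 (ENSMUSG00000065412.3) lies on chromosome 1 from 195037040 to 195037120 on the plus strand. Mir29c (ENSMUSG00000065548.1) follows after 426 bases, from 195037547 to 195037634. Both chromosome 1 genes lie in an exon of the non-coding host gene A330023F24Rik, and on the other strand in the exon of Cd46 that holds a UTR. No miRNA gene other than the cluster partner lay within 10000 bases of any member. The annotated hairpins are 88 bases (Mir29a), 71 (Mir29b-1), 81 (Mir29b-2) and 88 (Mir29c) long. Their GC content, from 35.2% in Mir29b-1 to 44.3% in Mir29c, was below the lower quartile of the 384 detected genes (45.03%, with a median of 51.3%).

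The libraries held 3758318 counts on the sense strand of miRNA genes in replicate 1 and 5598792 in replicate 2. Detection required at least 10 counts in each library, which 384 of the 2202 genes met. Reads that mapped to several places, which enter no gene, were 51.5% of all reads in replicate 1 and 46.7% in replicate 2. The neuronal genes of the list used to check the tissue label were read in these libraries, with 11 of 15 detected and a summed level of 54648 ± 705 counts per 1000000 counted reads (CPM; SD, n = 2). The 4 that were not detected are the 3 Mir124a genes, with 0 to 5 counts, and Mir9-2, with 7 and 5 counts, all of which share at least 62 bases with another hairpin. The list for muscle and liver summed to 101.6 ± 36.1 CPM, with 4 of its 6 genes at 0 in both libraries. Those 4, the Mir1a and Mir133a genes, share at least 28 bases with another hairpin, so their zeros do not show that muscle was absent, and Mir122 and Mir206, which share none, were detected.

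The family as a whole was abundant, and most of its assigned counts were those of Mir29a, with the limit that reads of miR-29b-3p matching both loci are not among them. Its 4 genes summed to 22067 CPM in replicate 1, and to 23613 CPM in replicate 2, that is 2.21% (Wilson 95% interval 2.19 to 2.22%) and 2.36% (2.35 to 2.37%) of all counted reads in those libraries, with a mean of 22840 ± 1093 CPM (SD, n = 2). The counting intervals of these shares did not overlap, and the side depends on the scaling: the sum was higher in replicate 2 in CPM, and 1.16-fold higher in replicate 1 with TMM, a scaling described with the tests (log2 ratio of replicate 2 over replicate 1, -0.22). All intervals here cover counting error alone and not the spread between libraries. The reads carried no stated molecular identifiers and may be copies of 1 molecule, so the intervals may be too narrow even for counting error. All levels below count reads, and a read of a mature strand is counted once whatever the length of the hairpin. Where genes are compared, levels per base of hairpin are also given, as an alternative scale and not as a correction.

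Mir29a had 73330 counts in replicate 1 and 119295 in replicate 2. That is 19511 CPM in replicate 1 (interval 19372 to 19652), and in replicate 2 it is 21307 CPM (21188 to 21427), with a mean of 20409 ± 1270 CPM. It ranked 12th of all miRNA genes in replicate 1 and 11th in replicate 2, and held 88.4% of the family's counts in replicate 1 and 90.2% in replicate 2.

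Mir29c, whose 3p strand differs from that of Mir29a by C10U, was the second member at about an order of magnitude less. Its counts were 9324 in replicate 1 and 12130 in replicate 2. These gave 2481 CPM in replicate 1 (interval 2431 to 2532), and in replicate 2 the level was 2167 CPM (2128 to 2205), with a mean of 2324 ± 222 CPM. It ranked 59th in each library and held 11.2% of the family's counts in replicate 1 and 9.18% in replicate 2. Mir29a exceeded Mir29c by 7.86-fold in replicate 1 (interval 7.70 to 8.04) and by 9.83-fold in replicate 2 (9.65 to 10.02). Their hairpins are equally long, so the ratio per base is the same, and the ranges of the genes over the libraries did not overlap.

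Both Mir29b genes were detected at low counts. Mir29b-2 had 140 counts in replicate 1 and 433 in replicate 2, or 37.3 CPM (interval 31.6 to 43.95) in the first library and 77.3 CPM (70.4 to 84.97) in the second. Mir29b-1 had 140 counts in replicate 1 and 344 in replicate 2, or 37.3 CPM (31.6 to 43.95) and 61.4 CPM (55.3 to 68.3). The means were 57.3 ± 28.3 CPM for Mir29b-2 and 49.3 ± 17.1 CPM for Mir29b-1, and both genes had the higher CPM in replicate 2. Within a library, Mir29b-2 over Mir29b-1 was 1.00 in replicate 1 (interval 0.792 to 1.26) and 1.26 in replicate 2 (1.09 to 1.45). Per base of hairpin that ratio was 0.877 in replicate 1 and 1.10 in replicate 2. Per base of hairpin their means were 0.707 ± 0.350 CPM for Mir29b-2 and 0.695 ± 0.241 CPM for Mir29b-1, beside 26.4 ± 2.53 CPM for Mir29c and 231.9 ± 14.4 CPM for Mir29a. Together the Mir29b genes held 0.338% of the family's counts in replicate 1 (interval 0.300 to 0.379%) and 0.588% in replicate 2 (0.548 to 0.630%). As reads of miR-29b-3p inside the shared run match both loci, these values are no level of miR-29b in the tissue, and the order of Mir29b below Mir29a and Mir29c is an order of counted reads only.

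**Figure D2:**
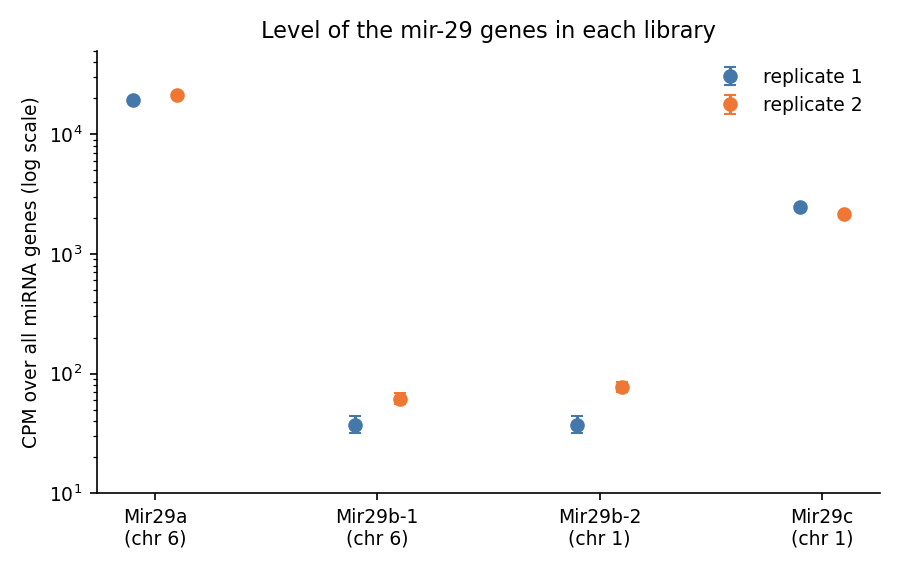
Level of each mir-29 gene in CPM over all miRNA genes, on a log axis, in replicate 1 (blue) and replicate 2 (orange); bars are Wilson 95% intervals and are smaller than the points for Mir29a and Mir29c. Mir29a stands at 19511 and 21307 CPM and Mir29c between 2167 and 2481 CPM, while both Mir29b genes lie between 37.3 and 77.3 CPM.

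By locus, the chromosome 6 cluster held 88.6% of the family's counts in replicate 1 (interval 88.4 to 88.8%) and 90.5% in replicate 2 (90.3 to 90.7%), with a mean of 89.5% ± 1.35. The chromosome 1 cluster held 11.4% in replicate 1 and 9.50% in replicate 2. Members of a cluster are thought to be cut from a common primary transcript, yet the counts of the partners were far apart. Mir29a had 524 times the counts of Mir29b-1 in replicate 1 (interval 444 to 618) and 347 times in replicate 2 (312 to 385), or 422.6 and 279.8 times per base of hairpin. Mir29c had 66.6 times the counts of Mir29b-2 in replicate 1 (56.4 to 78.7) and 28.01 times in replicate 2 (25.5 to 30.8), or 61.3 and 25.8 times per base of hairpin. In both clusters the gap was narrower in replicate 2, the library with the smaller share of reads mapping to several places, and the part of that share in the result was not tested.

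Set beside other neighbours, the pair of Mir29a and Mir29b-1 was among the least alike. Pairs were taken as adjacent detected genes on a strand with at most 10000 bases between them, and there were 105 of them besides the mir-29 pairs. The absolute log2 ratio of counts, averaged over the libraries, was 8.74 for Mir29a and Mir29b-1 and 5.43 for Mir29c and Mir29b-2. The other pairs had a median of 2.43 and quartiles of 1.11 and 4.58. Of these, 48 lay on chromosome 12, with a median of 2.85, and 57 elsewhere, with a median of 2.05. Successive pairs can have a gene in common, so they are not independent. Only 1 other pair, Mir544 and Mir382 of the imprinted chromosome 12 cluster, stood above Mir29a and Mir29b-1, and 18 stood above Mir29c and Mir29b-2. Other pairs in which a mature sequence lies in a further hairpin had a median of 1.94 (19 pairs), and those with no such sequence had a median of 2.70 (76 pairs). Pairs whose genes could not be classed by the RefSeq sequences are in neither group. The 19 pairs mix those where both genes have such a sequence with those where only 1 does, as in the mir-29 pairs. Their median therefore does not show how loss of such reads acts on the mir-29 ratios. Like the mir-29 ratios, those of the other pairs rest on reads that could be assigned.

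**Figure D3:**
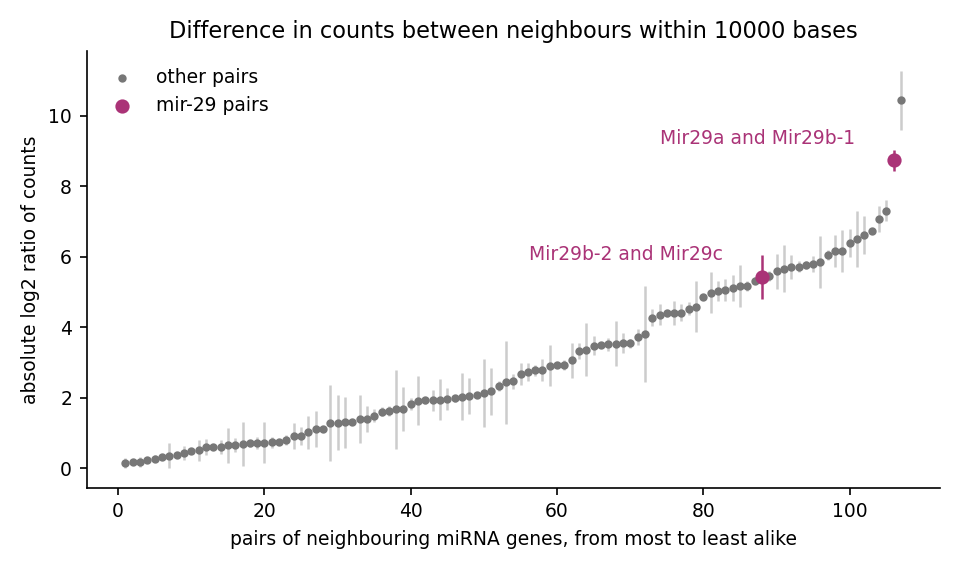
Absolute log2 ratio of counts between neighbouring detected miRNA genes within 10000 bases, with pairs ordered from most to least alike; points are means of the absolute values in the libraries and lines join those values. Mir29a with Mir29b-1 (8.74) has the second highest value, and Mir29b-2 with Mir29c (5.43) lies above the upper quartile of the other pairs (4.58).

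The assigned counts of the Mir29b copies were set against other gene pairs that have a mature sequence in common. Reads that match both loci of a pair are absent from these counts, so the ratios compare only the reads left. In 22 pairs with separate loci and both genes detected, a mature sequence lay in exactly 2 annotated hairpins. Mir29b-2 over Mir29b-1 gave a ratio of 1.00 in replicate 1 (interval 0.792 to 1.26) and 1.26 in replicate 2 (1.09 to 1.45), and the absolute log2 ratio, averaged over the libraries, was 0.17, the second smallest. The other 21 pairs had a median of 1.14 on that log2 scale, with a range from 0.06 for Mir1843a and Mir1843b to 6.67 for Mir181b-2 and Mir181b-1. In summed level the Mir29b copies, at 106.6 ± 45.5 CPM, were below 17 of the 21 other pairs, whose median was 482.9 CPM. Mir128-1 and Mir128-2, which share miR-128-3p, had the highest sum of these pairs, 15847 CPM. Over the table, the 46 detected genes with a mature sequence that also lies in another hairpin stood at a median level of 136.7 CPM. The 297 detected genes with none stood at 104.3 CPM. These medians cover only genes that passed detection. With undetected genes included the order was the reverse, at 0.290 CPM for the 114 genes with such a sequence and 0.490 CPM for the 904 with none. The reference matched 343 of the 384 detected genes and 1018 of all 2202, and genes without a match are in neither class.

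**Figure D4:**
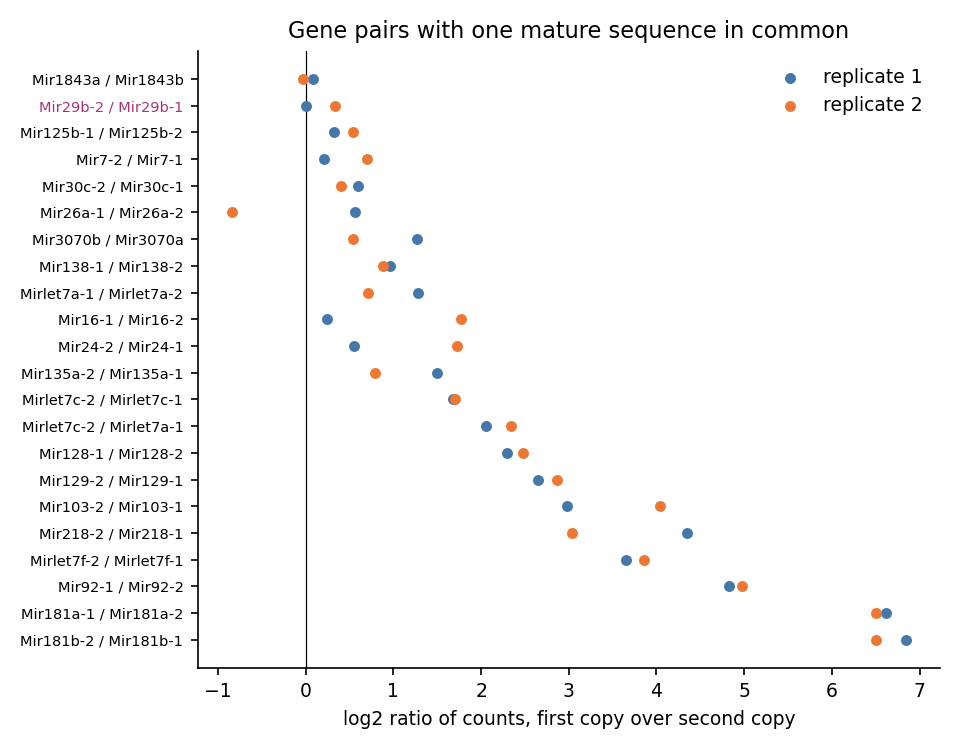
Log2 ratio of counts between gene pairs that have a mature sequence in common, ordered by the mean absolute ratio, in replicate 1 (blue) and replicate 2 (orange); the copy with the higher mean level is named first. The Mir29b pair (purple label) lies at 0.00 and 0.33, the second closest to equality of 22 pairs after Mir1843a and Mir1843b.

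Between the libraries, the family moved in both directions. A fold here is on the scale of TMM, a scaling that assumes most genes do not differ between libraries, and an exact two-sided binomial test with Benjamini-Hochberg adjustment over the 384 detected genes was used. The test compares these libraries and not conditions, and covers counting error only. All 4 members were called at an adjusted p under 0.05, where 65.1% of all detected genes were called, and the members' count is to be read against that share. Called higher in replicate 1 were Mir29a and Mir29c, as were 34.1% of detected genes. Mir29b-1 and Mir29b-2 were called higher in replicate 2, as were 31.0%. The share called also differed with level. Of other genes within 2-fold of the member's level, 15 of 15 were called for Mir29a and 30 of 37 for Mir29c. For Mir29b-1 it was 39 of 63 and for Mir29b-2 41 of 65.

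Mir29a was 1.14-fold higher in replicate 1 on the TMM scale (log2 ratio of replicate 2 over replicate 1, -0.19; adjusted p = 4.07e-170, exact binomial test). With total counts as the scale, that is in CPM, Mir29a was instead higher in replicate 2 (log2 ratio 0.13), so its direction rests on the scaling. Its fold was smaller than that of 302 of the 384 detected genes and below the median of 1.36-fold. Among the 15 other genes within 2-fold of its level, 14 differed more. By the same measure, 8 of 37 genes differed more than Mir29c, 32 of 63 more than Mir29b-1 and 13 of 65 more than Mir29b-2. On the TMM scale Mir29c and Mir29b-2 thus differed more between the libraries than most genes of like level.

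Mir29c was 1.43-fold higher in replicate 1 (log2 ratio -0.51; adjusted p = 9.11e-143, exact binomial test) and kept that direction in CPM. Mir29b-1 was 1.32-fold higher in replicate 2 (log2 ratio 0.41; adjusted p = 0.00814, exact binomial test). Mir29b-2 was 1.67-fold higher in replicate 2 (log2 ratio 0.74; adjusted p = 1.21e-07, exact binomial test). On the TMM scale none of the 4 reached a 2-fold difference, which 58 of the detected genes did (15.1%), while under total counts Mir29b-2 did, with a log2 ratio of 1.05. Under total counts the calls over all detected genes shifted as well, with 72.0% of 271 calls higher in replicate 2, against 47.6% of 250 calls on the TMM scale, and the median log2 ratio of all detected genes stood at 0.31.

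**Figure D5:**
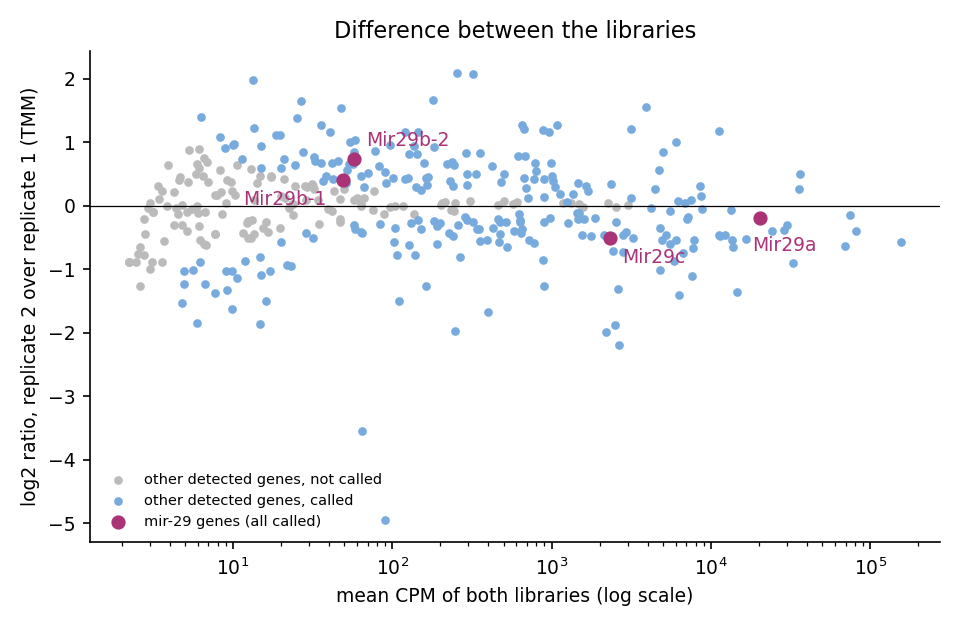
Log2 ratio of replicate 2 over replicate 1 on the TMM scale against mean CPM (log axis) for the 384 detected genes; mir-29 genes are purple, other called genes blue and genes that were not called grey. Mir29a (-0.19) and Mir29c (-0.51) lie below 0 and both Mir29b genes (0.41 and 0.74) above it.

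The members sat among other genes of like level in both libraries. By the distance in log2(CPM + 1) over the 2 libraries, the closest to Mir29a were Mirlet7e (0.39), the activity-induced Mir132 (0.48) and Mir23b (0.72). Mir598 (0.15), Mir342 (0.19) and Mir128-2 (0.26) were closest to Mir29c. For Mir29b-1 they were the red cell gene Mir451a (0.10), Mir184 (0.10) and Mir344b (0.14), and for Mir29b-2 they were Mir3072 (0.03), Mir148a (0.06) and Mir505 (0.08). With 2 libraries such a likeness is one of level and of the side on which a gene lies, and no more.

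Genes described as astrocyte-associated besides mir-29 were all read in the tissue. The 10 listed genes had a summed level of 27467 CPM in replicate 1, against 20613 CPM in replicate 2. Of the 10, 6 were called higher in replicate 1, 2 in replicate 2 and 2 were not called, beside 34.1% and 31.0% of all detected genes called higher in those libraries, with a median log2 ratio of -0.43 beside -0.01 for all detected genes. Mir21a, known to rise in reactive glia, was 2.49-fold higher in replicate 1 (log2 ratio -1.32), with 13061 counts in replicate 1 and 9716 in replicate 2. Mir143, also a smooth muscle gene, was 2.15-fold higher in replicate 1 (log2 ratio -1.11). Mir23a had 11450 ± 939 CPM and was higher in replicate 1 (log2 ratio -0.48). Its cluster partner Mir27a was higher in replicate 2 (log2 ratio 0.30), with 140.1 ± 41.6 CPM, and so was Mir24-2 (log2 ratio 1.03). Some lists of other cell types lay on the same side, where 34.1% of all detected genes were called higher in replicate 1. Called higher there were 3 of 3 endothelial and mural markers (median log2 ratio -1.11) and 3 of 5 markers of microglia and leukocytes (-0.43). So were 8 of 11 detected neuronal markers (-0.46), with the other 3 higher in replicate 2. Of the 5 choroid plexus and ependyma markers 3 were called higher in replicate 2, where 31.0% of all detected genes were, with a median log2 ratio of 0.13. The remaining lists did not lie on the side of replicate 1 either. Of 2 detected oligodendrocyte markers 1 was called higher in each library (0.22). Of 2 red cell markers 1 was called higher in replicate 2 and 1 was not called (0.07). Both detected muscle and liver markers were called higher in replicate 2 (0.48). The endothelial and mural sum was 22045 CPM in replicate 1, against 16510 CPM in replicate 2. The lists overlap, since Mir143 of the astrocyte list is also in the endothelial and mural list. Mir223 is likewise in the list of microglia and leukocytes, and Mir449a in that of choroid plexus and ependyma. The part of any of these cells in the mir-29 values was not tested.

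The mir-29 family is known for acting on DNA methyltransferases, and other genes described as acting on these or on the TET demethylases were read beside it. All 9 listed genes were detected, with 3 called higher in replicate 1, 5 higher in replicate 2 and 1, Mir148b, not called, beside 34.1% and 31.0% of all detected genes called in those directions. They had a summed level of 24297 CPM in replicate 1, against 20090 CPM in replicate 2, with a median log2 ratio of 0.64 beside -0.01 for all detected genes. Mir26b, described as acting on TET enzymes, had 19595 CPM in replicate 1, and 9522 CPM in replicate 2, and was 2.56-fold higher in replicate 1. Mir22, also described as acting on TET enzymes, had 3446 CPM in replicate 1, and 8643 CPM in replicate 2, and was 2.01-fold higher in replicate 2. In replicate 1 Mir26b held most of the sum of the list, while in replicate 2 Mir26b and Mir22 were close to each other. The mir-148 and mir-152 genes, described as acting on Dnmt1, were at low levels, with 56.6 ± 25.8 CPM for Mir148a, 75.8 ± 8.99 CPM for Mir148b and 24.6 ± 11.1 CPM for Mir152. Mir26a-1 and Mir26a-2, copies with a common mature strand, were 30.9-fold and 11.7-fold higher in replicate 1, opposite in side to the Mir29b copies. Mir26a-1 had 650 counts in replicate 1 and 39 in replicate 2, and Mir26a-2 had 440 and 70. As for Mir29b, reads that match both loci are absent from these counts, so the folds are not those of miR-26a in the tissue.

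On the strand opposite to each member no read was counted in either library, which allows up to 3 counts per library. For Mir29b-2 and Mir29c this is the strand of Cd46. The unstranded and the sense counts of all 4 members were therefore the same.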

How the data were processed

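MicroRNA sequencing of total RNA (size range below 30, per the labels) gave 2 libraries of 1 group. The authors deposited raw read counts per miRNA gene, whole numbers without normalization, made on mm10 with GENCODE M21 per the text deposited beside the tables. Aligner and counter: not given in the sources used here. The third column was taken as sense; its total exceeds that of the opposite strand (287729 and 425273 counts in replicates 1 and 2). The 4 summary lines were kept apart from every total and test. They held, in replicates 1 and 2, 51.5% and 46.7% of reads with several mapping places, 9.53% and 14.4% without any, and 3.47% and 4.24% outside features.

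CPM are counts per 1000000 sense counts. TMM factors came from edgeR 4.0.16 on genes with at least 10 counts in both libraries, and size factors for an alternative from DESeq2 1.42.0. With 1 library against 1, no quasi-likelihood fit was possible, so the exact binomial test (scipy 1.17.1) took its expected share from TMM effective library sizes, with adjustment over 384 genes. It was tested on simulated counts with known changes. Those counts were drawn with counting error only and scaled by known totals, so they do not cover further spread between libraries or the TMM scaling. Intervals are 95% Wilson intervals. Hairpins were compared within the annotation only, by windows of 20 bases. The genes named are the 4 members, the 3 detected genes nearest to each in log2(CPM + 1), the listed astrocyte-associated and DNA methylation genes, and cluster neighbours; other pairs were named after their values were seen. The members and lists were chosen with earlier results of these data known.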

Additional observations from a re-analysis of the deposited data

How the results depend on the processing

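The family sum of 22840 CPM was 24723 CPM with unstranded counts, whose total is smaller because reads on overlapping genes are dropped, and 8012 CPM over all reads of the tables. It stayed within its SD with CPM over detected genes, TMM or DESeq2 scaling, and ran from 22067 to 23613 CPM with a replicate left out; the cluster share ran from 88.6 to 90.5%. All 4 members were called under each of the 7 alternatives run, with other scalings, filters, unstranded counts or a chi-square test. The calls over all genes ranged from 221 to 271. As a share of the genes tested they ran from 11.1% of 2202 with no filter to 78.6% of 281 with at least 50 counts. The members' count is to be read against those shares. Mir29a alone turned direction, with a log2 ratio of 0.13 under total counts (adjusted p = 2.42e-78, exact binomial test), since that scale differs from TMM by a factor of 1.25, and the family sum turned with it; the other members kept theirs. Mir29a with Mir29b-1 was exceeded by 0 to 2 other pairs under other gaps and filters, and Mir29c with Mir29b-2 by 16 to 21; taking the mean of signed ratios before the absolute value, an alternative chosen after seeing the data, left these counts at 1 and 18. With a replicate left out no call between libraries can be made. No paired analysis was possible because there is 1 group. The low counts of the Mir29b genes set their wide intervals.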
